A study of Mus musculus with 11 samples.

Results

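A set of 10 genes of the primitive endoderm and of fibroblast growth factor (FGF) signalling was followed in single 8-cell mouse embryos with and without the zinc finger transcription factor PRDM10: Gata6, Gata4, Sox17, Sox7, Pdgfra, Fgf4, Fgfr1, Fgfr2, Grb2 and Dusp6. These 10 genes were chosen by name, and all 10 were found among the 54146 genes of the expression tables. The series holds 11 C57BL/6 embryos collected at E2.5 after natural mating of Prdm10Δ/+ parents. The 5 mutant embryos were Prdm10Δ/Δ, with exon 5 of Prdm10 deleted on both alleles, and the 6 control embryos were Prdm10+/+ or Prdm10Δ/+, which the labels do not separate. Each embryo gave 1 Smart-seq2 library, in which polyadenylated RNA is copied from an oligo-dT primer and pre-amplified. Batch 1 (3 control and 2 mutant embryos) had 16 cycles of pre-amplification and batch 2 (3 control and 3 mutant embryos) had 13, and the batches were isolated and processed separately. The litter of each embryo is not given in the sources used here, so p-values measure the spread between these embryos only. A whole embryo is a bulk sample of its blastomeres, in which fewer cells expressing a gene and less RNA per cell cannot be told apart.

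The primitive endoderm is the extraembryonic layer that later lines the blastocyst cavity and gives rise to yolk sac endoderm. In the blastocyst, FGF4 secreted by epiblast precursors acts through FGFR1 and FGFR2 on neighbouring cells, the adaptor GRB2 couples the receptors to the Ras-ERK cascade, and ERK activity favours GATA6 over NANOG, after which SOX17, GATA4 and SOX7 follow in turn and PDGFRA marks the committed cells. DUSP6 is a phosphatase that is induced by ERK and switches ERK off. At the 8-cell stage these lineages are not yet separate.

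Library totals ran from 3534735 to 8265840 expected counts, and the 8 cleavage stage markers were present in every embryo. Their summed level was 5061 to 6387 TPM (a level per transcript length, scaled to the same total in every embryo), of which Dppa3 alone made 4240 to 5987. In the DESeq2 fit described below, 1 of the 8, Klf5, was called higher in mutants (log2 fold change 0.84 ± 0.14 SE, adjusted p = 1.07e-06 with DESeq2, adjusted p = 0.0073 with edgeR). An unadjusted p below 0.05 was found for 5 higher and 1 lower in mutants, beside 11.9% of all tested genes. The mutants were told apart by qRT-PCR across Prdm10 exon 5 (the primers are printed because every genotype rests on them), and the primers were placed on GENCODE vM21 Prdm10 transcripts on the plus strand of chromosome 9 of GRCm38. The forward primer lay at chr9:31318544-31318563, in 5 of 5 transcripts, and the reverse primer at chr9:31325677-31325695, in 3 of 5, with a product of 97 bases once spliced:
forward primer: tgtccaacaggatgccacag
reverse primer: tctggcaatggggttctgc
Over the whole gene, which keeps its other exons, Prdm10 had a normalised read count of 236 ± 85.2 (SD, n = 6) in controls and 151 ± 39.4 (n = 5) in mutants (log2 fold change -0.66 ± 0.26 SE, adjusted p = 0.215), and its TPM was 11.1 to 24.8 in controls and 4.88 to 8.16 in mutants. Markers of other cells were low but not absent. The summed TPM of 6 oviduct markers was 0 to 24.9 in controls and 0.23 to 34.9 in mutants, and within batch 1 it did not pass 1.34. Of 9 cumulus cell markers, 4 were at 0 in all 11 embryos, and the sum of the 9 was at most 0.3 TPM except for 10.9 in mutant 2. The 6 stromal markers, of which 2 were at 0 in all embryos, had sums that were apart in batch 2, with 0, 0 and 0.03 TPM in controls 1 to 3 and 1.42, 0.84 and 6.21 in mutants 1 to 3, and summed to at most 0.29 in batch 1. Dcn, which encodes the matrix proteoglycan decorin, was at 0 in the 3 batch 2 controls and at 11.3, 6.1 and 21.5 normalised counts in the 3 batch 2 mutants. It made most of the sum in mutants 1 and 2 (1.36 and 0.69 TPM). Among genes with a mean normalised count above 10, 13.0% had groups apart in batch 2. The 6 blood markers, of which 1 was at 0 in all embryos, were apart in the other direction in batch 2, with sums of 33.6, 10.7 and 10.2 TPM in controls 1 to 3 and 9.62, 2.29 and 6.2 in mutants 1 to 3, and summed to 1.24 to 5.9 in batch 1.

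Of the 10 genes, 8 were detected at the 8-cell stage, taking as detected a rounded expected count of at least 10 in at least 6 embryos. Gata6, Gata4, Fgf4, Fgfr1, Fgfr2 and Grb2 passed 10 counts in all 11 embryos, Dusp6 in 9 and Pdgfra in 8, while Sox17 did so in 1 and Sox7 in none. Averaged over the 11 embryos, the TPM was 103 ± 18.2 (SD) for Grb2, 66.4 ± 21.9 for Gata6, 44.4 ± 20.1 for Fgfr2, 28.6 ± 23.7 for Gata4, 10.6 ± 6.81 for Fgf4, 8.35 ± 3.73 for Fgfr1 and 5.66 ± 4.30 for Dusp6. The 3 lowest were Pdgfra with 0.57 ± 0.45, Sox17 with 0.23 ± 0.59 and Sox7 with 0.035 ± 0.085. Set against the 10489 genes with a mean normalised count above 10, Grb2 lay above 86.7% of them, Gata6 above 81.4%, Fgf4 above 47.4% and Pdgfra above 0.858%. Fgfr2 lay above 75.3%, Gata4 above 67.8% and Fgfr1 above 42.4%. So Grb2, Gata6, Fgfr2 and Gata4 lay in the upper part of the range, whereas Pdgfra, Sox17 and Sox7 were at or near 0.

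**Figure D1:**
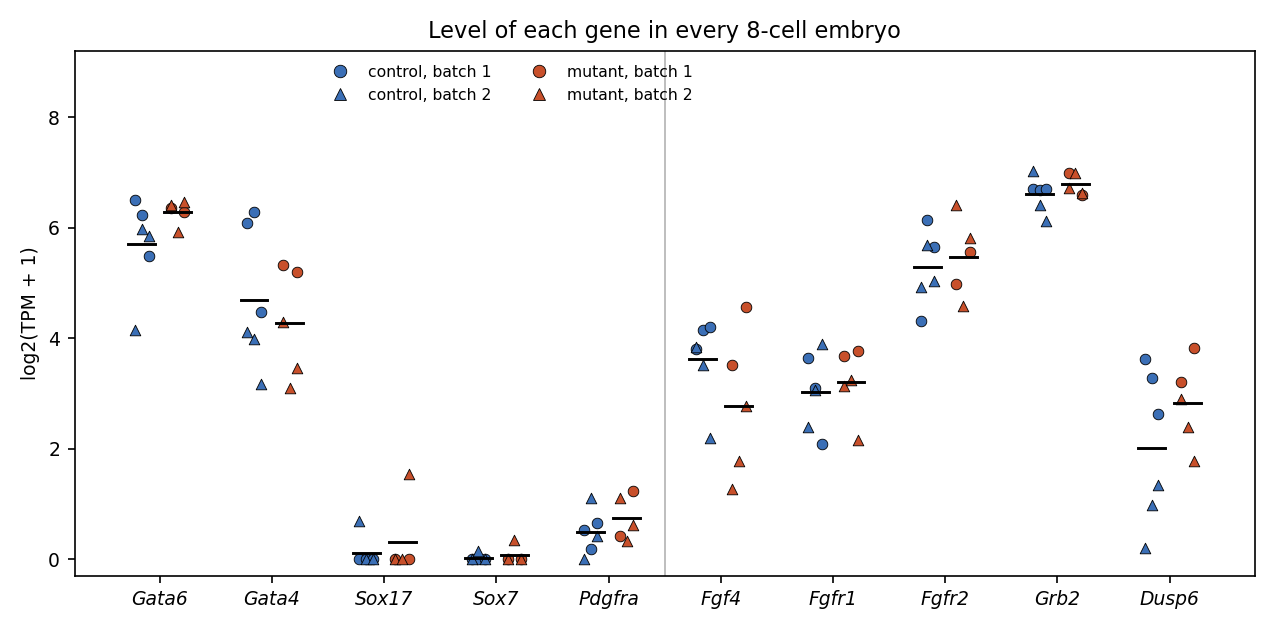
Level of each of the 10 genes in every embryo as log2(TPM + 1), with controls in blue, mutants in orange, circles for batch 1 and triangles for batch 2; the bars are group means and the vertical line separates primitive endoderm genes from FGF signalling genes. Sox17 and Sox7 lie at 0 in all but 2 embryos each, and Gata4, Fgf4 and Dusp6 lie lower on average in batch 2 than in batch 1.

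The order of these levels was tested between neighbours, by an exact sign-flip permutation test of the log2(TPM + 1) difference within embryos (two-sided, n = 11, adjusted over 9 neighbouring pairs). There were 3 steps that held. Grb2 was above Gata6 in 11 of 11 embryos (mean difference 0.72 ± 0.80 SD, adjusted permutation p = 0.0044), Gata4 was above Fgf4 in 11 of 11 (1.26 ± 0.92, adjusted permutation p = 0.0044) and Dusp6 was above Pdgfra in 10 of 11 (1.78 ± 1.12, adjusted permutation p = 0.0059). Gata6 and Fgfr2, Fgfr2 and Gata4, and Fgfr1 and Dusp6 were each in the stated order in 8 of 11 embryos, which did not pass the threshold (adjusted permutation p = 0.072 for each). Fgf4 and Fgfr1 could not be ordered (0.13 ± 1.32, adjusted permutation p = 0.74), nor could Pdgfra and Sox17 (p = 0.11, adjusted, permutation) or Sox17 and Sox7 (p = 0.56, adjusted, permutation). With normalised counts divided by the longest annotated transcript in place of TPM, Gata6 (245 ± 76.9 counts per kb) and Grb2 (243 ± 42.1) exchanged places and were not separated (adjusted permutation p = 0.85), as did Gata4 (94.9) and Fgfr2 (72.1). On that scale the separated neighbours were Grb2 over Gata4, Fgfr2 over Fgf4 and Dusp6 over Pdgfra (adjusted permutation p = 0.018 for each), so that of the 3 steps in TPM only the last was again a separated step between neighbours. On RSEM's posterior mean of TPM, Fgfr1 (15.3 ± 5.57) lay above Fgf4 (10.4 ± 6.23), and Gata4 was not separated from Fgfr1 below it (adjusted permutation p = 0.10), while the steps from Grb2 to Gata6 and from Dusp6 to Pdgfra were again separated (adjusted permutation p = 0.0044 and 0.026). That mean includes a prior share for each transcript, and put Pdgfra at 2.27 and Sox17 at 1.75 TPM, although Sox17 had no reads in 9 of 11 embryos. On that mean Sox17 was also separated from Sox7 (11 of 11 embryos, adjusted permutation p = 0.0044). The quantification gave Grb2 an effective length (the number of positions at which a read can start) of 1089 to 1566 bases against a longest transcript of 2709.

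None of the 10 genes was called as changed in mutants. A gene was called when its mean normalised count was above 10 and its adjusted p below 0.05 in a DESeq2 fit with batch as a covariate. That fit called 151 of 10448 genes, or 1.45%, 59 higher and 92 lower. Of the 8 members it tested, 6 had positive and 2 negative log2 fold changes, with a median of 0.30 against -0.0012 for all tested genes. Of the 8, 3 (Fgf4, Grb2 and Dusp6) had an unadjusted p below 0.05, as did 11.9% of all tested genes. The edgeR quasi-likelihood test likewise called 0 of the 8, with 3 at an unadjusted p below 0.05, against 35 calls in all (0.334%), and limma on log2(TPM + 1) called 0. No member had groups that stayed apart over all 11 embryos, which 0.925% of genes did.

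**Figure D2:**
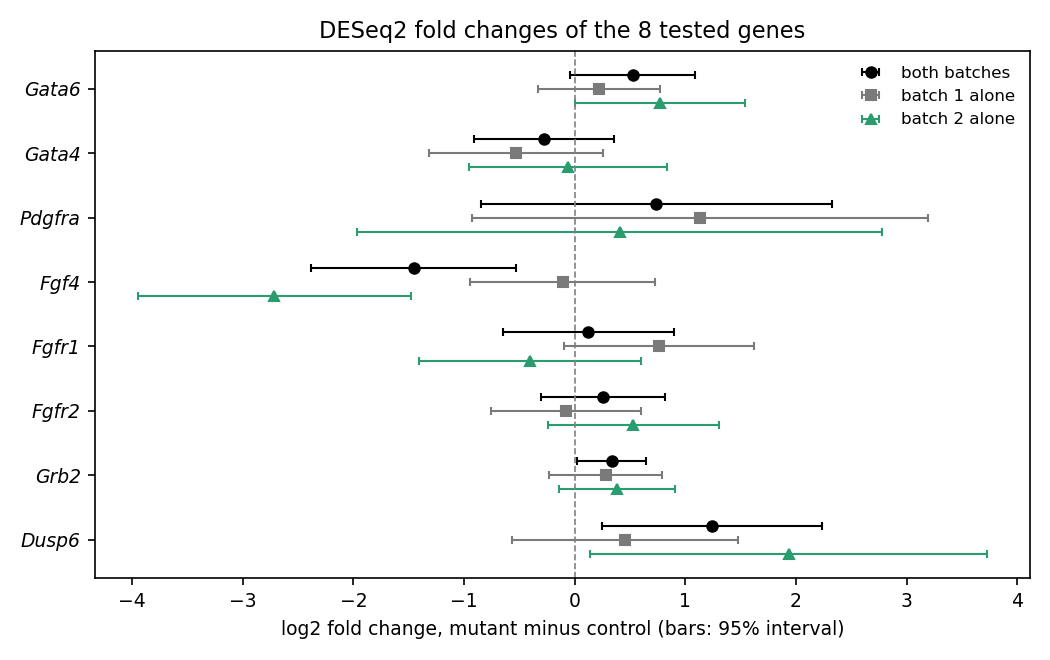
DESeq2 log2 fold changes, mutant minus control, of the 8 tested genes, with 95% intervals, from both batches together (black), batch 1 alone (grey) and batch 2 alone (green). For Fgf4 the batch 2 estimate of -2.71 stands apart from the batch 1 estimate of -0.11, and for the other genes the intervals of the 2 batches overlap.

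Gata6, the zinc finger factor that starts the primitive endoderm programme, lies on the plus strand of chromosome 18 (11052064 to 11085635, GRCm38). In batch 1 its normalised read counts were 1062, 964 and 614 in controls and 1024 and 1015 in mutants. In batch 2 they were 246, 900.0 and 900.1 in controls and 1234, 931 and 1319 in mutants, so that each of the 3 mutants lay above each of the 3 controls. Gata6 was 1 of 3 members (with Fgf4 and Dusp6) whose normalised counts stayed apart within batch 2, beside 13.0% of all genes. In TPM its groups overlapped there, since mutant 2 (59.2) lay below control 2 (61.8). The stromal sums (higher in mutants) and blood sums (higher in controls) given above were also apart between these 6 embryos, and their part in the separations of Gata6, Fgf4 and Dusp6 was not tested. The fitted difference was 0.52 ± 0.29 (SE) on the log2 scale, with a 95% interval of -0.04 to 1.09 (adjusted p = 0.489). Control 1 was the lowest embryo by a wide margin, and without it the difference was 0.29. In TPM the group means were 57.1 ± 25.2 and 77.6 ± 10.9, and the exact permutation test within batches gave p = 0.12 (log2 difference 0.63).

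Gata4, a second GATA factor that acts after Gata6 in this lineage (minus strand of chromosome 14, 63198922 to 63271692), was called for batch and not for genotype. Controls had 687, 894 and 259 normalised counts in batch 1 and 187, 169 and 88.2 in batch 2, and mutants had 431 and 413 in batch 1 and 215, 94.5 and 113 in batch 2. The groups overlapped in both batches, and the difference was -0.28 ± 0.32 (95% interval -0.91 to 0.36, adjusted p = 0.826). With 1 embryo left out it ran from -0.52 (without mutant 1) to -0.10 (without control 5). Every batch 1 embryo lay above every batch 2 embryo, with a batch 2 minus batch 1 difference of -1.84 ± 0.32.

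Sox17, an HMG-box factor of the primitive endoderm (minus strand of chromosome 1, 4490931 to 4497354), had reads in 2 embryos only: an expected count of 6 in control 1 and of 30 in mutant 3. A count of 0 in the other 9 allows at most 3 counts, or 0.363 to 0.849 CPM (counts scaled to the library total) over the 11 libraries. These were also the 2 embryos with the highest TPM of Ovgp1, the secreted glycoprotein of oviduct epithelium, at 24.2 in control 1 and 30.1 in mutant 3 against at most 15.7 elsewhere. Sox17 is known in oviduct epithelium too. The part of oviduct RNA in these reads was not tested. DESeq2 gave Sox17 no p, because its Cook distance filter removed it. Sox7, its close relative (plus strand of chromosome 14, 63943673 to 63950732), had 1 count in control 2, 6 in mutant 2 and 0 in the other 9.

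Pdgfra, the PDGF receptor of committed primitive endoderm cells (plus strand of chromosome 5, 75152292 to 75198215), was just above detection. It had 10.7, 4.04 and 17.4 normalised counts in batch 1 controls and 0, 36.5 and 11.6 in batch 2 controls. The mutants had 9.22 and 38.3 in batch 1 and 36.2, 8.38 and 17.6 in batch 2. The groups overlapped throughout, and at this depth the interval of the difference was wide (0.74 ± 0.81, 95% interval -0.85 to 2.32, adjusted p = 0.813). With 1 embryo left out it ran from 0.21 (without mutant 5) to 1.48 (without control 2).

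Fgf4, the ligand that passes the primitive endoderm signal, had the largest negative fold change of the 8 tested genes and did not pass the threshold. In batch 1 its normalised read counts were 152, 180.4 and 182 in controls and 90.1 and 227 in mutants, which overlapped. Batch 2 controls had 136, 101 and 55.2, and batch 2 mutants had 8.3, 12.2 and 24.4, all below the controls. Over both batches the difference was -1.45 ± 0.47 (95% interval -2.38 to -0.53, adjusted p = 0.092 with DESeq2 and adjusted p = 0.36 with edgeR). Leaving out mutant 5, the highest of all embryos, gave -2.01 (adjusted p = 0.000906), and leaving out control 4 gave -1.68 (adjusted p = 0.047), so that the call depended on single embryos. The other fits with 1 embryo left out did not call Fgf4, with a difference as small as -1.12 (without mutant 1) and a DESeq2 adjusted p of up to 0.335. Without the batch term the difference was -0.90 (DESeq2 adjusted p = 0.92).

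Within batch 2 alone, Fgf4 was called by DESeq2 (-2.71 ± 0.63, adjusted p = 0.014), as 1 of 48 genes or 0.458% of those tested, and within batch 1 the difference was -0.11 ± 0.43. The interaction of batch and genotype was -2.61 ± 0.73, which did not pass adjustment over all genes (adjusted p = 0.528 with DESeq2, adjusted p = 1.0 with edgeR). DESeq2 called that interaction for 4 genes (0.0382%) and for none of the members. Of the members only Fgf4 had an unadjusted p below 0.05, as did 450 of the 10489 genes with a mean normalised count above 10. With the effective-length offset it was Dusp6 (1.955, adjusted p = 1.0), and not Fgf4, whose interaction had an unadjusted p below 0.05. edgeR called the interaction for 0 of 10489 genes, with 339 at an unadjusted p below 0.05.

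**Figure D3:**
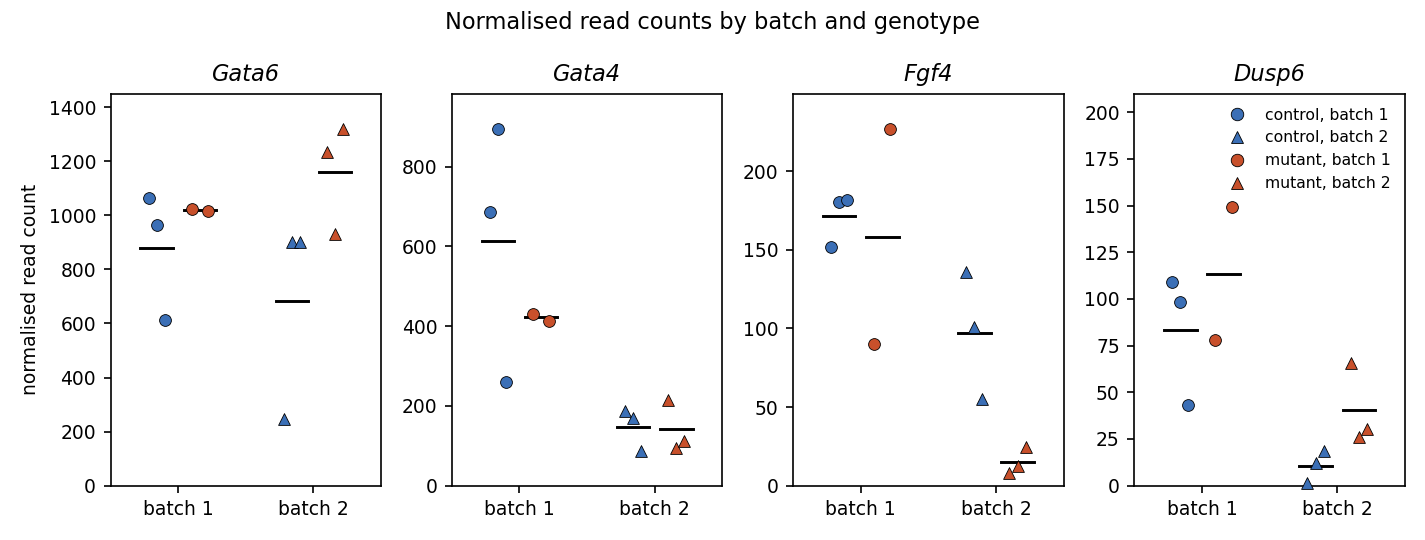
Normalised read counts of Gata6, Gata4, Fgf4 and Dusp6 in each embryo, split by batch and genotype (bars: means; each panel has its own axis from 0). In batch 2 the 3 mutants lie below the 3 controls for Fgf4, at 8.3 to 24.4 against 55.2 to 136, and above them for Gata6 and Dusp6.

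The Fgf4 difference was smaller once transcript length was taken into account. Fgf4 spans chr7:144847367-144865243 on the plus strand in GENCODE vM21, with 2 transcripts of 3 exons each. The longer, of 3030 bases, starts at 144861386, and the shorter, of 395 bases, starts 14019 bases upstream and ends at 144862890. The estimated effective length was 1977 to 2956 bases in the 6 controls and 2038 and 2292 in the batch 1 mutants, but 1186, 969 and 836 in the batch 2 mutants, where the quantification assigned a larger share to the short transcript. In TPM, which divides by that length, batch 2 controls had 13.2, 10.5 and 3.55 and batch 2 mutants 1.42, 2.42 and 5.82, so the groups overlapped. With the effective length as an offset in DESeq2 the difference was -0.74 (adjusted p = 0.536) and the interaction -1.55 (adjusted p = 1.0). The permutation test of log2(TPM + 1) within batches gave a difference of -0.70 (exact p = 0.155). The batch 2 mutants had 11, 16 and 25 expected counts, so that each length estimate there rested on few reads.

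**Figure D4:**
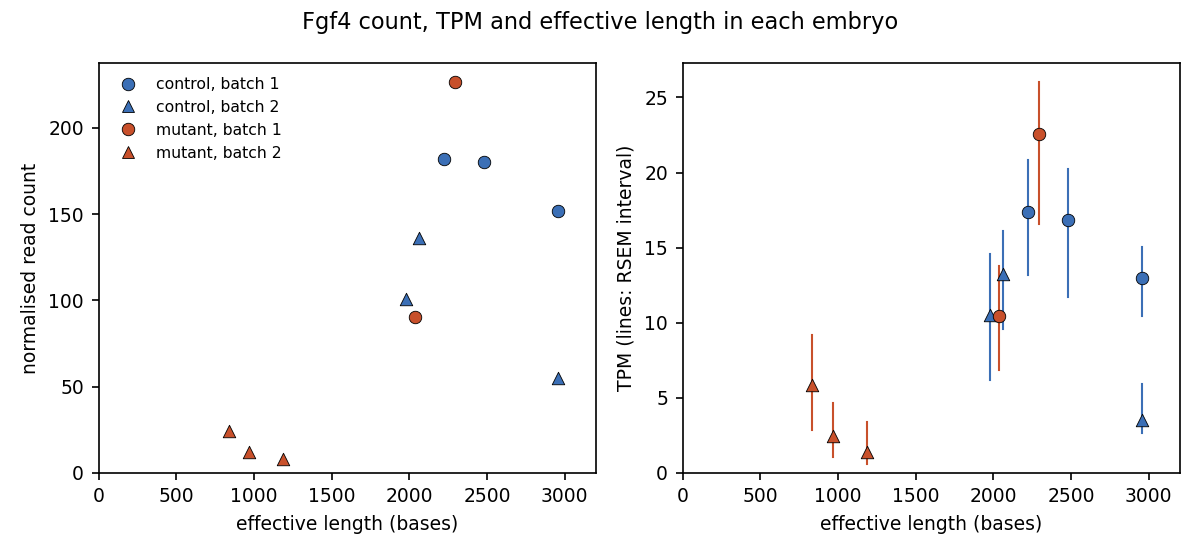
Fgf4 normalised read count (left) and TPM with the interval deposited beside it (right) against the estimated effective length in bases, 1 point per embryo. The 3 batch 2 mutants lie apart at 836 to 1186 bases and at most 24.4 counts, and in TPM 1 of them (5.82) lies above 1 batch 2 control (3.55).

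The promoters of Fgf4 and Dusp6 are printed because these 2 signalling genes had separate groups in batch 2, in opposite directions. Each is the 250 bases before the RefSeq transcription start (GRCm38.p6, plus strand), Fgf4 at chr7:144861136-144861385, which is the start of the longer transcript, and Dusp6 at chr10:99262981-99263230. Capitals mark matches on either strand to the GC box GGGCGG, the CCAAT box, the TATA box TATAAA and the ETS core CCGGAA:
Fgf4: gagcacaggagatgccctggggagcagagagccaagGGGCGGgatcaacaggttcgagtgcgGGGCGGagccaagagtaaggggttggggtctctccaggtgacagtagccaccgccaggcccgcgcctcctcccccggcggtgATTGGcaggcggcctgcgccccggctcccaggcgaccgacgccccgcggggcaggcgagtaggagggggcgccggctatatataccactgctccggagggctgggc
Dusp6: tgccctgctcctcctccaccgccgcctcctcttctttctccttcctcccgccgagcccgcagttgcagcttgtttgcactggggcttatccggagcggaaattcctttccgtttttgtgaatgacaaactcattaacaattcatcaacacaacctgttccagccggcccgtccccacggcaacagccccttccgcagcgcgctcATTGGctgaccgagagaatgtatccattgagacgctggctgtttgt
The Fgf4 window was 71.2% G or C, against a median of 52.4% over the 32851 promoter windows of that table, and held GGGCGG 214 and 188 bases before the start and an inverted CCAAT 106 bases before it. The Dusp6 window held an inverted CCAAT 46 bases before the start and no GC box. Among all windows, 32.7% held GGGCGG, 33.8% CCAAT, 12.4% TATAAA and 12.03% CCGGAA, and no marked matches overlapped.

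For PRDM10 itself, the study designed a DNA probe and a version of it with 8 changed bases, in capitals below, which are shown because they give letters to look for in the promoters:
wild-type probe: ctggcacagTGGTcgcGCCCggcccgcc
mutated probe: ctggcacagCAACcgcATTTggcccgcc
The span TGGTCGCGCCC of the wild-type probe was present on either strand in 4 of the 32851 promoter windows (0.0122%). It was in none of the 6 windows looked at, of Pdgfra, Fgf4, Fgfr2, Grb2 and Dusp6. No window of Gata6, Gata4, Sox17, Sox7 or Fgfr1 was looked at. An exact match this rare was unlikely in 6 windows, so its absence does not tell whether they hold a site that PRDM10 binds.

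Fgfr1 and Fgfr2 encode the receptors that read FGF4. Fgfr1 (plus strand of chromosome 8, 25513654 to 25575718) had 180, 151 and 65.3 normalised counts in batch 1 controls and 198 and 247 in batch 1 mutants, whereas batch 2 controls had 77.0, 174 and 324 and batch 2 mutants 158, 199.7 and 77.1. The mutants were above the controls in batch 1, as the groups of 23.6% of genes were apart there in one direction or the other, and the groups overlapped in batch 2. Its overall difference was 0.12 ± 0.39 (95% interval -0.65 to 0.90, adjusted p = 0.955). Fgfr2 (minus strand of chromosome 7, 130162451 to 133123350) had 196 to 372 counts in controls, with a median of 294, and 580, 201, 425, 281 and 285 in mutants 1 to 5. Its groups overlapped in both batches, with a difference of 0.26 ± 0.29 (95% interval -0.30 to 0.82, adjusted p = 0.814), which was 0.044 without mutant 1 and 0.40 without mutant 2.

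Per length, Fgfr2 was the more abundant receptor. Its TPM exceeded that of Fgfr1 in 11 of 11 embryos, by a log2 ratio of 2.27 ± 1.13 (SD, n = 6) in controls and 2.27 ± 1.11 (n = 5) in mutants. The ratio did not separate the groups (difference -0.03 within batches, exact permutation p = 0.965). It ranged from 0.67 to 3.64 between embryos. The ratio depends on the lengths used, and Fgfr2 was assigned 1235 to 2633 effective bases and Fgfr1 3657 to 4884. With counts divided by the longest transcript of each gene the log2 ratio was 1.19 ± 1.03, above 0 in 10 of 11 embryos. The deposited tables also hold a posterior mean of TPM, to which the deposited intervals belong. The Fgfr1 TPM lay below its interval in 11 of 11 embryos, and its posterior mean was 1.83 times its TPM. On posterior means the log2 ratio was 1.39 ± 0.83 (n = 11), still above 0 in 11 of 11 embryos.

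Grb2, the adaptor that links the receptors to Ras (minus strand of chromosome 11, 115644045 to 115708597), was the steadiest of the 10 genes, with a highest TPM 1.87 times its lowest. Its normalised counts were 504, 630.0 and 643 in batch 1 controls and 778 and 656 in batch 1 mutants, which did not overlap, whereas in TPM they did, with mutant 5 (95.6) below all 3 controls (101 to 103). In batch 2 they were 696, 580.3 and 476 in controls and 672, 865 and 742 in mutants, which did. The difference was 0.33 ± 0.16 (95% interval 0.02 to 0.65, adjusted p = 0.392), and with the effective-length offset it was 0.19.

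Dusp6, the ERK phosphatase (plus strand of chromosome 10, 99263231 to 99267489), had the largest positive difference among the 8 tested genes. In batch 1 its normalised counts were 109, 98.3 and 43.0 in controls and 77.8 and 149 in mutants. Batch 2 controls had 1.66, 12.2 and 18.4, and the mutants had 65.7, 25.9 and 30.2, each above all 3 controls. The fit gave 1.24 ± 0.51 (95% interval 0.24 to 2.24, adjusted p = 0.257), with 0.45 in batch 1, 1.93 in batch 2 and 0.56 without the batch term (DESeq2 adjusted p = 0.999). It was the one gene of 10 below 0.05 in the permutation test of log2(TPM + 1) within batches (difference 0.99, exact p = 0.025 without adjustment over the 10, where 200 arrangements allow no p under 0.005), as were 8.73% of all genes. Permuted over both batches, the exact p was 0.271. Within batches it stayed below 0.05 without control 4, control 5 or mutant 4, and was 0.05 to 0.0625 in the other 8 of 11 tests with 1 embryo left out, where fewer arrangements were possible (0.06 without control 1, which held 2 Dusp6 counts).

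For batch, 3 of the 8 tested members were called: Gata4, Fgf4 and Dusp6 were lower in batch 2 than in batch 1, by log2 differences of -1.84 ± 0.32, -1.98 ± 0.47 and -2.28 ± 0.51 (adjusted p = 5.12e-07, 0.000351 and 0.00012 in DESeq2). edgeR called the same 3, and so did DESeq2 with the effective-length offset (-1.65, -1.30 and -2.12). Genes called for batch made up 27.9% of all tested. Pre-amplification cycles, isolation and any difference in developmental progress between the batches cannot be told apart. Among controls alone, Fgf4 had 152 to 182 normalised counts in batch 1 and 55.2 to 136 in batch 2, and Dusp6 had 43.0 to 109 and 1.66 to 18.4, so that the separations between genotypes in batch 2 lay where fewer reads of these genes were counted.

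The other genes of the pathway were described from 6 lists, which hold 102 genes, of which 101 were matched and 59 tested. Of the 59, 3 were called (5.08%, beside 1.45% of all genes), all lower in mutants, none a member and none called by edgeR. Fgfr4, an FGF receptor, had controls at 321, 244 and 181 normalised counts and mutants at 154 and 104 in batch 1, and controls at 83.7, 66.0 and 46.5 and mutants at 34.7, 21.3 and 39.0 in batch 2, with no overlap in either. Its difference was -1.004 ± 0.28 (adjusted p = 0.033 with DESeq2, adjusted p = 0.241 with edgeR). Klb, the co-receptor for endocrine FGFs, had controls at 111, 159 and 213 and mutants at 35.8 and 125 in batch 1, which overlapped, and controls at 93.6, 53.9 and 45.5 and mutants at 15.1, 19.8 and 19.5 in batch 2, which did not (-1.44 ± 0.38, adjusted p = 0.023 with DESeq2, adjusted p = 0.21 with edgeR). Lamtor3, a scaffold for MEK1 and ERK1, had 298 to 302 in controls and 253 and 211 in mutants in batch 1, and 463 to 544 and 261 to 354 in batch 2, apart in both (-0.54 ± 0.16, adjusted p = 0.0497 with DESeq2, adjusted p = 0.252 with edgeR). The call ended in 6 of 11 fits with 1 embryo left out for Fgfr4 (controls 1, 4 and 5, mutants 1, 2 and 5), in 6 of 11 for Klb (controls 1 and 6, mutants 1 to 4) and in 10 of 11 for Lamtor3 (all but mutant 4). Fgfr4 and Klb were also lower in batch 2 than in batch 1 (-1.97 and -1.68), whereas Lamtor3 was higher in batch 2 (0.61).

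Of the 22 FGF ligand genes, 3 were detected. Besides Fgf4 these were Fgf3, at 7.58 TPM (difference -1.31 ± 0.85, adjusted p = 0.584), and Fgf1, at 1.68 TPM (-0.84 ± 0.60, adjusted p = 0.634), and 7 of the 22 were at 0 TPM in every embryo. The 5 tested receptors and co-receptors had a median difference of -0.38. The 18 tested adaptors and kinases from receptor to ERK had a median of 0.03, with 10 positive and 8 negative, and were led by Map2k2, which encodes MEK2, at 129 TPM (0.26 ± 0.22, adjusted p = 0.708), Grb2 and Hras at 76.6 TPM (-0.40 ± 0.20, adjusted p = 0.401). Of 12 tested ERK feedback and target genes the median was 0.02. Spry2, a feedback inhibitor of receptor signalling, stood at 94.9 TPM with a difference of -0.09 ± 0.19 (adjusted p = 0.927), and Myc at 41.0 TPM with 0.02 ± 0.68 (adjusted p = 0.997).

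Among 22 primitive endoderm genes, 12 were tested and none called, with 9 positive and 3 negative differences and a median of 0.63, beside -0.0012 for all tested genes. An unadjusted p below 0.05 was found for 2, Dab2 and Lamc1, both with positive differences, beside 11.9% of all tested genes. Dab2, an endocytic adaptor, was at 10.9 ± 11.4 TPM in controls and 22.3 ± 9.15 in mutants (0.94 ± 0.48, adjusted p = 0.429). Lamc1, a laminin chain of basement membranes, had 9.29 normalised counts in controls and 35.1 in mutants (2.02 ± 0.68, adjusted p = 0.116). Both were called without control 2, and Lamc1 also without mutant 3. The later genes Hnf4a, Foxa2 and Ttr were at 0 TPM in every embryo. Sparc and Fst, which stromal or cumulus cells express too, were highest in mutant 2 (16.6 and 3.98 TPM), the embryo with the highest cumulus marker sum, whereas Lamc1 was highest in mutant 4 (4.38 TPM), whose cumulus, oviduct, stromal and blood sums were 0.3, 0.43, 0 and 5.9 TPM, the blood sum being the highest of batch 1. The part of other cells in these levels was not tested. Of 11 epiblast genes, 9 were tested and none called, with a median of 0.16, and 4 had an unadjusted p below 0.05, 2 in each direction. Nanog, the epiblast factor set against GATA6 in the blastocyst, was at 30.4 ± 17.4 TPM in controls and 15.2 ± 11.7 in mutants, with overlapping groups (-1.05 ± 0.38, adjusted p = 0.167). The pluripotency factor genes Prdm14 (-1.12 ± 0.47, adjusted p = 0.279) and Tfcp2l1 (0.86 ± 0.27, adjusted p = 0.07) and Pou5f1 were the others. With 1 embryo left out, Tfcp2l1 was called without control 2 or control 6, and Pou5f1 without mutant 1. Pou5f1 was at 184 TPM (0.90 ± 0.31, adjusted p = 0.123), Tdgf1, a Nodal co-receptor, at 97.3 TPM (0.47 ± 0.32, adjusted p = 0.608) and Klf2 at 56.5 TPM (-0.37 ± 0.28, adjusted p = 0.661).

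**Figure D5:**
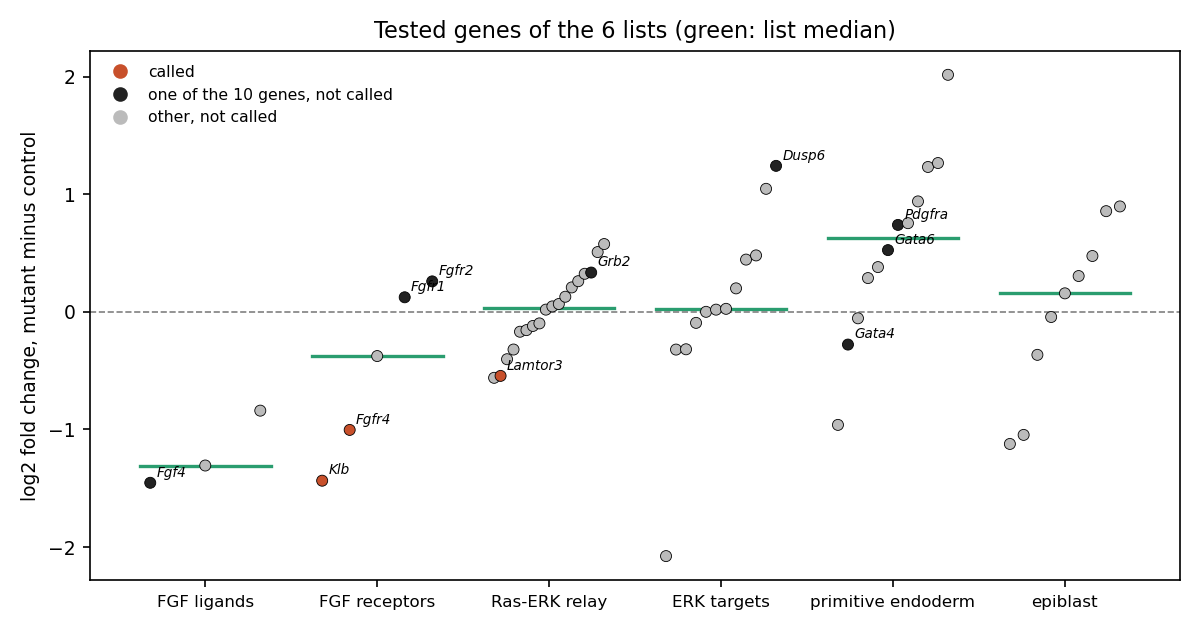
DESeq2 log2 fold changes, mutant minus control, of every tested gene in the 6 lists, ordered within each list, with the list median in green. The 3 called genes (orange) lie below 0 at -0.54 to -1.44, and the named members (black) lie on both sides of 0.

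By likeness over the 11 embryos, measured as Pearson's r of log2(TPM + 1) after subtraction of each batch mean, the 3 of 10489 genes closest to Gata6 were Isyna1, which encodes inositol-3-phosphate synthase (r = 0.96), the spindle checkpoint gene Mad1l1 (r = 0.95) and the heparan sulfate sulfotransferase gene Hs6st1 (r = 0.95). Closest to Grb2 were Tars, a threonyl-tRNA synthetase (r = 0.93), Galt, of galactose metabolism (r = 0.92), and Gfer, a sulfhydryl oxidase (r = 0.92). These are the highest of many values over the same 11 libraries and were not tested.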

How the data were processed

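The authors aligned single-end Smart-seq2 reads with STAR 2.6.0c to GRCm38.p6 and made an expected count and a TPM per gene with RSEM, per the submitters' processing notes. The deposited files give, per embryo, these expected counts, which need not be whole, TPM, effective lengths and the posterior mean and interval of TPM. A deposited table of the authors' own comparison holds their fold changes and p-values and was not used. Expected counts were rounded and tested with DESeq2 1.42.0 (Wald test, batch and genotype, unshrunken fold changes, Benjamini-Hochberg over all genes). edgeR 4.0.16 and limma 3.58.1 were alternatives. All 3 were tested on 1 simulated data set, in which the share of false calls was above its nominal level and highest for DESeq2. Levels were compared as log2(TPM + 1), so fold changes of low genes are understated, with exact permutation tests, two-sided, within batch. RSEM's TPM depends on estimated transcript shares. The deposited intervals of TPM and the limits of a count of 0 cover counting error only. The intervals of the log2 differences come from the DESeq2 standard errors, which also include the fitted spread between embryos. Library totals of 3534735 to 8265840 counts leave genes near 10 counts imprecise. The 10 genes and the lists were chosen with earlier results of these data known. Genes named beside the 10 were those called and the top 3 by TPM in each list, and the 3 most like the highest primitive endoderm and signalling gene. Dppa3, Lamc1, Nanog, Prdm14, Tfcp2l1, the genes at 0 (Hnf4a, Foxa2 and Ttr), Sparc, Fst, Egr1 and marker values in single embryos were chosen after they were seen.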

Additional observations from a re-analysis of the deposited data

How the results depend on the processing

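The number of genes called in mutants, 151, was 35 with edgeR, 22 with limma on log2(TPM + 1), 21 with limma on log2(TPM + 0.1), 51 without the batch term, 78 in batch 1 alone and 48 in batch 2 alone, and 90 to 265 when single embryos were left out; the lower calls made up 60.9% in DESeq2, 77.1% with edgeR, 95.5% and 95.2% with limma, 74.5% without the batch term, 75.0% in batch 2 alone and 43.0% without control 2. The number of members called was 0, and 1 (Fgf4) in batch 2 alone and without control 4 or mutant 5 (range 0 to 1). The 3 calls in the lists became 0 with edgeR, with limma at either pseudocount and without the batch term, and 1 in each batch alone, Pou5f1 in batch 1 and Fgf4 in batch 2 (range 0 to 5 with 1 embryo left out). The Lamtor3 call also ended with TMM factors (adjusted p = 0.057), the filter of at least 10 counts in 5 libraries (0.064), the effective-length offset (0.057) and the independent filtering tuned to 0.1 (0.054). The cause of these differences was not tested, beyond the fewer embryos within a batch. Members below 0.05 in the permutation test of TPM went from 1 to 0 when permuted over both batches, and ranged from 0 to 1 with an embryo left out. The 3 separated neighbours in the order of levels became 0 in each batch alone, where 5 or 6 embryos limit the test. The Fgfr2 to Fgfr1 difference of -0.03 was 0.0037 when permuted over both batches, 0.12 on posterior mean TPM and -0.36 to 0.27 with an embryo left out, and the sign of Fgfr1 changed in batch 2 alone (-0.41) and without control 1 (-0.01), control 6 (-0.071) or mutant 5 (-0.05) (range -0.071 to 0.49 with an embryo left out), and that of Fgfr2 in batch 1 alone (-0.078). Members detected numbered 7 with a TPM of at least 1 as the rule, which Pdgfra missed, and 8 with at least 1 count and with each embryo left out, and interaction calls among members stayed at 0 with each embryo left out. The independent filtering level, the offset on the interaction, the comparison of batch 2 with batch 1, the transcript-length order and the posterior mean TPM were added after the data were seen. No paired analysis was possible because the replicate numbers follow accession order and mark no shared litter or animal.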

Other observations

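Some embryos of batch 2 stood out for single genes that other cell types express, chosen here after their values were seen. Mutant 2 had 7.83 TPM of Inha and 3.08 TPM of Inhba, the inhibin and activin subunits made by granulosa and cumulus cells, both at 0 in the other 10 embryos, together with 3.98 TPM of Fst, 16.6 TPM of Sparc and 1.98 TPM of Egr1, which elsewhere reached at most 0.34, 4.14 and 0.24 TPM. Fst and Sparc stand in the primitive endoderm list and Egr1 among the ERK targets. Mutant 3 had 1.0, 1.27 and 1.4 TPM of the collagen genes Col1a1, Col1a2 and Col3a1, at most 0.12, 0.03 and 0.03 elsewhere, and held the 30 Sox17 counts. Control 1 had 22.5 TPM of the globin gene Hba-a2 and 24.2 TPM of Ovgp1, and it had the lowest Gata6 and the lowest Dusp6 of all 11 embryos. Leaving out mutant 2 or mutant 3 moved the Gata6 difference to 0.57 or 0.45 and the Dusp6 difference to 1.31 or 1.27 on the log2 scale, and leaving out control 1 moved them to 0.29 and 0.87. The part of RNA from other cells in these values was not tested.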
